A study of Mus musculus with 4 samples.

Results

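Across the injured mouse brain, 10 genes of the transforming growth factor-β (TGFβ) system were followed out of 32285 features in the count tables: the ligands Tgfb1, Tgfb2 and Tgfb3, the receptors Tgfbr1, Tgfbr2 and Tgfbr3, and the proteins that hold or release latent ligand, Itgb8, Nrros and Ltbp1, with Ltbp2 beside them. LTBP2 is a relative of LTBP1 that does not bind latent TGFβ itself. The 10 genes were chosen by name for their place in the pathway, with earlier results of these data known. All 10 were found in the feature list. Their levels are given as unique molecular identifiers (UMIs, a tag that marks each captured RNA molecule) of the gene per 10000 UMIs of all genes, summed over the spots of a brain slice. 2 classes of spots were set side by side: fibrotic spots, with at least 5 Col1a1 UMIs per 10000, and Col1a1-free spots, with 0.

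The study placed fresh frozen mouse brain slices on 4 Visium capture areas, 2 slices to an area, and each of the 8 slices came from its own mouse. Wild-type (WT) mice were taken at rest (1 slice) and at 2, 7 and 21 days post-injury (dpi; 1, 2 and 2 slices) after a photothrombotic (PT) injury, in which a light-activated dye closes cortical vessels. The last 2 slices, at 21 dpi after PT injury, came from deleter mice of the genotype Cthrc1(creER); R26(DTA), in which the Cthrc1 promoter drives a tamoxifen-inducible Cre that turns on diphtheria toxin A in myofibroblasts. The authors set these deleter mice aside because they could not detect the deletion, and their methods give mice of both sexes aged 7 to 21 weeks without tying an age to a slice. Each area was split into its 2 connected pieces of tissue, and the labels do not say which piece of the first area is at rest. That assignment was fixed beforehand by the size of the pieces. The smaller, of 1017 spots, was taken as rest and the larger, of 1726 spots, as 2 dpi.

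TGFβ ligands are secreted in a latent form, wrapped in their own propeptide. Latent TGFβ-binding proteins such as LTBP1 tether this complex to the matrix, and NRROS (also called LRRC33) tethers it to the surface of macrophages and microglia. Integrins, among them αvβ8, whose β chain Itgb8 encodes, then free the ligand, which joins the kinase receptors TGFBR2 and TGFBR1 with help from the co-receptor betaglycan (Tgfbr3), so that SMAD proteins enter the nucleus and matrix genes are transcribed. In the brain, microglia and macrophages are a known source of TGFβ1, and astrocytes and neural progenitors are known for αvβ8.

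The slices held 11332780 to 23677298 UMIs each. The median spot held 2633.5 UMIs at 2 dpi and 12447 to 16158 in the other 7 slices. Fibrotic spots numbered 112 and 392 at 7 dpi, 170 and 203 in WT mice at 21 dpi, and 193 and 274 in deleter mice, but only 3 at rest and 26 at 2 dpi, which were too few to be used. In the first 7 dpi slice 68.75% of the fibrotic spots lay at the edge of the tissue. The fibrotic spots of that slice had a median depth of 4923.5 UMIs against 16149 in Col1a1-free spots. All 5 neuron markers looked at were detected in the Col1a1-free spots of every slice, at 24.5 to 62.9 UMIs per 10000 together. The capture areas shared 1293 of 3446 barcodes, which are printed array positions and not shared cells. Xist was counted at 1281 and 1597 UMIs at 7 dpi against 1 and 4 in WT slices at 21 dpi, where Y-linked genes were counted instead, so that time, capture area and sex-linked expression cannot be told apart in that comparison. A spot covers several cells, and fewer cells of a type and less RNA per cell cannot be told apart here.

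Among the 10 genes, 4 moved closely together. Over 24 sums (4 zones of distance to fibrotic spots in each of 6 slices) the log2 levels of Tgfb1, Tgfbr1, Tgfbr2 and Nrros correlated with each other at Pearson's r of 0.935 to 0.966, a description only, as sums of a slice share a library. Genes outside the 10 ran closer still to each: Tmem106a to Tgfb1 (0.989), Vsir to Tgfbr1 (0.988), Tnfrsf1a to Tgfbr2 (0.989) and Bnip2 to Nrros (0.980). The share of all gene pairs at such r was not computed, so that it does not set these 4 apart. For these 4 members, the 250 bases before their annotated starts are shown, 5′ to 3′ on the gene's strand, from RefSeq on GRCm38.p6. Capitals mark the GC box (GGGCGG) and the PU.1 core (GAGGAA), each on either strand.
Tgfb1, chr7:25686752-25687001, plus strand: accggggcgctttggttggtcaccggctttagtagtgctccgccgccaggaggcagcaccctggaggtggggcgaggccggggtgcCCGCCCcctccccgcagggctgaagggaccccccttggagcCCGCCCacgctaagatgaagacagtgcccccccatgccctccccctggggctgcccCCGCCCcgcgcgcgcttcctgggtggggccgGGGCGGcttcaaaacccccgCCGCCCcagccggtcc
Tgfbr1, chr4:47352972-47353221, plus strand: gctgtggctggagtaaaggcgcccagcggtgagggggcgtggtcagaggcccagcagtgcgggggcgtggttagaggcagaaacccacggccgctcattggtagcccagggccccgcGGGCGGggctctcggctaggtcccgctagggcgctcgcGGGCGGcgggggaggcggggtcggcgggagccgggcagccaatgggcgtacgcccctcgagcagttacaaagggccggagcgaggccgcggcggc
Tgfbr2, chr9:116175364-116175613, minus strand: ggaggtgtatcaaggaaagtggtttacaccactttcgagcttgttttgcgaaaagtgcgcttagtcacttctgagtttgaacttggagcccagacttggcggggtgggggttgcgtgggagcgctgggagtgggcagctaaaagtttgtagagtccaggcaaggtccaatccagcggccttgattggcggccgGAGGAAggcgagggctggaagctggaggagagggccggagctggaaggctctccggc
Nrros, chr16:32165595-32165844, minus strand: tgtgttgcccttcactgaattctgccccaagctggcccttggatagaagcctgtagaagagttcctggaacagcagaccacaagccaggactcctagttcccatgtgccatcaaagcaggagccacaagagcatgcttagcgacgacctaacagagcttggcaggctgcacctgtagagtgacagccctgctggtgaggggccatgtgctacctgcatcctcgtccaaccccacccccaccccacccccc
The Tgfb1 and Tgfbr1 windows held 5 and 2 GC boxes at a GC content of 75.2% and 74.8%, and the Tgfbr2 and Nrros windows held none at 58.4% each. Of 32851 promoter windows of this length, 32.742% held a GC box and 23.253% a PU.1 core, which among these 4 windows was found once, in Tgfbr2. The SMAD box CAGAC, present in 42.194% of all windows, was found once each in Tgfbr2 and Nrros, and the AP-1 site TGANTCA, present in 6.749%, in none of the 4. No matches of different motifs overlapped in these 4 windows. Tgfbr1 had a second matched window, chr4:47385966-47386215, which is not shown and is not among these 4. It held 1 PU.1 core, 1 SMAD box and 0 GC boxes. Windows for 8 of the 10 members were matched. These matches are letters in a window and not tested binding sites.

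Over the 10 members, 8 were called higher and 0 lower in fibrotic than in Col1a1-free spots at 7 dpi by edgeR (n = 2 slices per group), against 22.2% of all tested genes called higher and 20.6% lower. The same number was called higher at 21 dpi, beside 29.0% of all genes higher and 27.4% lower, and in deleter mice, beside 28.8% and 26.5%. Because the members were chosen with earlier results of these data known, these counts and those below are descriptions and no independent test. Where values of the 2 classes are said below not to overlap, the share of all genes without overlap was not computed. The 8 include Ltbp2, which was nearly absent from Col1a1-free spots and could pass the filter on low counts only where it was high, so that its call adds nothing to the count. Marker genes moved with the class of spot: 5 fibroblast markers summed to 37.8 to 105 UMIs per 10000 in fibrotic and 1.03 to 1.22 in Col1a1-free spots, and 6 macrophage and microglia markers to 49.95 to 72.3 against 5.10 to 25.6, with none of either list at 0. The part of these cell types in the members' differences was not tested.

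Among the ligands, Tgfb1 and Tgfb3 were higher in fibrotic spots at 7 dpi, at 21 dpi and in deleter mice. Tgfb2 did not pass in the fit with all slices and the filter on low counts. Tgfb1 (chr7:25687002-25705077 on GRCm38, plus strand), the isoform tied most closely to wound repair, stood in fibrotic spots at 0.461 and 0.512 UMIs per 10000 at 7 dpi, 0.438 and 0.456 at 21 dpi and 0.366 and 0.394 in deleter mice. In Col1a1-free spots of the same slices it stood at 0.136 and 0.169, 0.0422 and 0.0212, and 0.0289 and 0.0408. Every fibrotic value lay above every Col1a1-free value, and the Col1a1-free level was highest in the 7 dpi slices. The log2 fold change between fibrotic and Col1a1-free spots was 1.75 (SE 0.22, adjusted p = 0.000187) at 7 dpi, 3.76 (SE 0.25, adjusted p = 1.61e-06) at 21 dpi and 3.39 (SE 0.24, adjusted p = 2.42e-06) in deleter mice, by edgeR's quasi-likelihood test on slice sums blocked by slice (n = 2 slices per group, Benjamini-Hochberg adjustment over 14477 genes).

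Tgfb3 (chr12:86056745-86079041, minus strand), a ligand known in mesenchyme, stood in fibrotic spots at 0.307 and 0.262 UMIs per 10000 at 7 dpi, 0.376 and 0.494 at 21 dpi and 0.572 and 0.441 in deleter mice. In Col1a1-free spots it stayed between 0.0461 and 0.0826 in the 6 slices. The classes of spots did not overlap, and the log2 fold changes were 2.40 (SE 0.24, adjusted p = 5.14e-05), 2.55 (SE 0.20, adjusted p = 4.65e-06) and 2.58 (SE 0.19, adjusted p = 2.98e-06) by edgeR. Tgfb2 (chr1:186622792-186705989, minus strand), a ligand with roles in development, spanned 0.204 to 0.288 in fibrotic and 0.0579 to 0.267 in Col1a1-free spots, which overlapped. Its log2 fold change was 0.23 (SE 0.50, adjusted p = 0.735) at 7 dpi, 0.73 (SE 0.48, adjusted p = 0.221) at 21 dpi and 0.90 (SE 0.48, adjusted p = 0.133) in deleter mice. Leaving out 1 slice made the call for Tgfb2 in 2 groups, with 1.77 (adjusted p = 0.0461) without WT slice 1 and 2.20 (adjusted p = 0.0132) without deleter slice 2. With all slices kept but no filter on low counts, Tgfb2 was also called at 21 dpi (0.76, adjusted p = 0.00507) and in deleter mice (0.89, adjusted p = 0.000681). The fold of Tgfb1 at 21 dpi moved to 4.42 (adjusted p = 2.24e-05) without WT slice 1.

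All 3 receptors were higher in fibrotic spots in each group. Tgfbr2 (chr9:116084293-116175360, minus strand), the receptor that binds ligand and sets off the signal, stood in fibrotic spots at 1.43 and 1.65 UMIs per 10000 at 7 dpi, 2.11 and 1.84 at 21 dpi and 1.92 and 1.80 in deleter mice. In Col1a1-free spots it stood at 0.390 and 0.443, 0.214 and 0.227, and 0.178 and 0.189. Fibrotic values exceeded Col1a1-free ones without overlap. The log2 fold changes were 1.97 (SE 0.14, adjusted p = 8.29e-06), 3.22 (SE 0.14, adjusted p = 1.80e-07) and 3.31 (SE 0.14, adjusted p = 1.36e-07) by edgeR.

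Tgfbr1 (chr4:47353222-47414931, plus strand), the kinase that phosphorylates SMAD2 and SMAD3, stood in fibrotic spots at 1.39 and 1.24 UMIs per 10000 at 7 dpi, 1.502 and 1.35 at 21 dpi and 1.49 and 1.16 in deleter mice. In Col1a1-free spots it stood at 0.667 and 0.574, 0.289 and 0.273, and 0.333 and 0.268. The fibrotic values of the times overlapped, while the Col1a1-free values were highest at 7 dpi. Its log2 fold changes were 1.18 (SE 0.12, adjusted p = 7.39e-05), 2.39 (SE 0.13, adjusted p = 4.56e-07) and 2.12 (SE 0.12, adjusted p = 7.07e-07) by edgeR. Tgfbr3 (chr5:107106570-107289629, minus strand), the co-receptor betaglycan, stood in fibrotic spots at 0.118 and 0.184 at 7 dpi, 0.478 and 0.259 at 21 dpi and 0.463 and 0.386 in deleter mice, against 0.0482 to 0.107 in Col1a1-free spots of the 6 slices. Its 7 dpi fibrotic values were the lowest of the 6, though still above every Col1a1-free value. Its log2 fold changes were 1.13 (SE 0.34, adjusted p = 0.0240), 2.24 (SE 0.29, adjusted p = 0.000100) and 2.49 (SE 0.27, adjusted p = 3.75e-05). At 7 dpi the call for Tgfbr3 was lost without 7 dpi slice 2 (0.60, adjusted p = 0.518) and with the spots at the tissue edge left out (0.83, adjusted p = 0.139), and in deleter mice its fold moved to 3.15 (adjusted p = 0.000134) without deleter slice 2.

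Of the remaining members, Nrros, Ltbp1 and Ltbp2 were higher in fibrotic spots and Itgb8 passed the test in none of the groups. Ltbp2 (chr12:84783212-84876532, minus strand), a microfibril-associated relative of LTBP1 that does not bind latent TGFβ itself, was counted mostly in fibrotic spots when the 2 classes are set side by side. In fibrotic spots it stood at 0.165 and 0.483 UMIs per 10000 at 7 dpi, 0.836 and 0.946 at 21 dpi and 0.666 and 0.860 in deleter mice, whereas Col1a1-free spots held only 1, 1, 7, 2, 6 and 14 of its UMIs in the same slices. Per slice the fibrotic level was 46.0 to 188 times the Col1a1-free level, with exact 95% intervals for counting error alone of 17.9 to 4967 in 7 dpi slice 1 and 43.1 to 228 in WT slice 1. Ltbp2 passed the filter on low counts only through the fibrotic spots, where it is high, so that its fitted change follows in part from the filter. The fitted log2 fold changes were 7.13 (SE 0.39, adjusted p = 2.09e-06), 6.73 (SE 0.25, adjusted p = 1.14e-07) and 5.73 (SE 0.23, adjusted p = 1.05e-07), and with so few Col1a1-free UMIs the one at 7 dpi moved to 9.47 without edge spots and to 5.25 when Col1a1-free spots were widened to under 1 Col1a1 UMI per 10000. The SE of 0.39 follows from the fold change and the F statistic. It is small beside the counting interval of 7 dpi slice 1 and is no guide to precision here.

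Nrros (chr16:32142785-32165594, minus strand) stood in fibrotic spots at 0.366 and 0.471 UMIs per 10000 at 7 dpi, 0.545 and 0.340 at 21 dpi and 0.432 and 0.394 in deleter mice. In Col1a1-free spots it stood at 0.122 and 0.131, 0.0475 and 0.0757, and 0.0675 and 0.0565, so that the classes did not overlap. Its log2 fold changes were 1.82 (SE 0.28, adjusted p = 0.000691), 2.98 (SE 0.30, adjusted p = 1.84e-05) and 2.73 (SE 0.28, adjusted p = 2.42e-05), and at 21 dpi the fold ranged from 2.18 without WT slice 1 to 3.60 without WT slice 2. Ltbp1 (chr17:75005568-75392512, plus strand), the main tether of latent TGFβ1 in matrix, spanned 0.142 to 0.319 in fibrotic and 0.0533 to 0.0818 in Col1a1-free spots. Its log2 fold changes were 1.88 (SE 0.35, adjusted p = 0.00175), 1.44 (SE 0.33, adjusted p = 0.00373) and 2.05 (SE 0.30, adjusted p = 0.000249), and the calls at 7 and 21 dpi were lost without 7 dpi slice 2 (1.01, adjusted p = 0.176) and without WT slice 1 (1.08, adjusted p = 0.0885). Without 7 dpi slice 1 the fold of Ltbp1 at 7 dpi was 2.47 (adjusted p = 0.00180).

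Itgb8 (chr12:119158022-119238802, minus strand), the β chain of the activating integrin αvβ8, stood in fibrotic spots at 0.496 and 0.319 UMIs per 10000 at 7 dpi, 0.635 and 0.533 at 21 dpi and 0.584 and 0.314 in deleter mice. In Col1a1-free spots it stood at 0.681 and 0.425, 0.502 and 0.530, and 0.446 and 0.460. The classes overlapped, and the log2 fold changes were -0.35 (SE 0.22, adjusted p = 0.218), 0.23 (SE 0.20, adjusted p = 0.351) and -0.11 (SE 0.20, adjusted p = 0.662). In deleter mice it was called lower (-0.67, adjusted p = 0.0129) when fibrotic spots had to reach 10 Col1a1 UMIs per 10000.

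**Figure D1:**
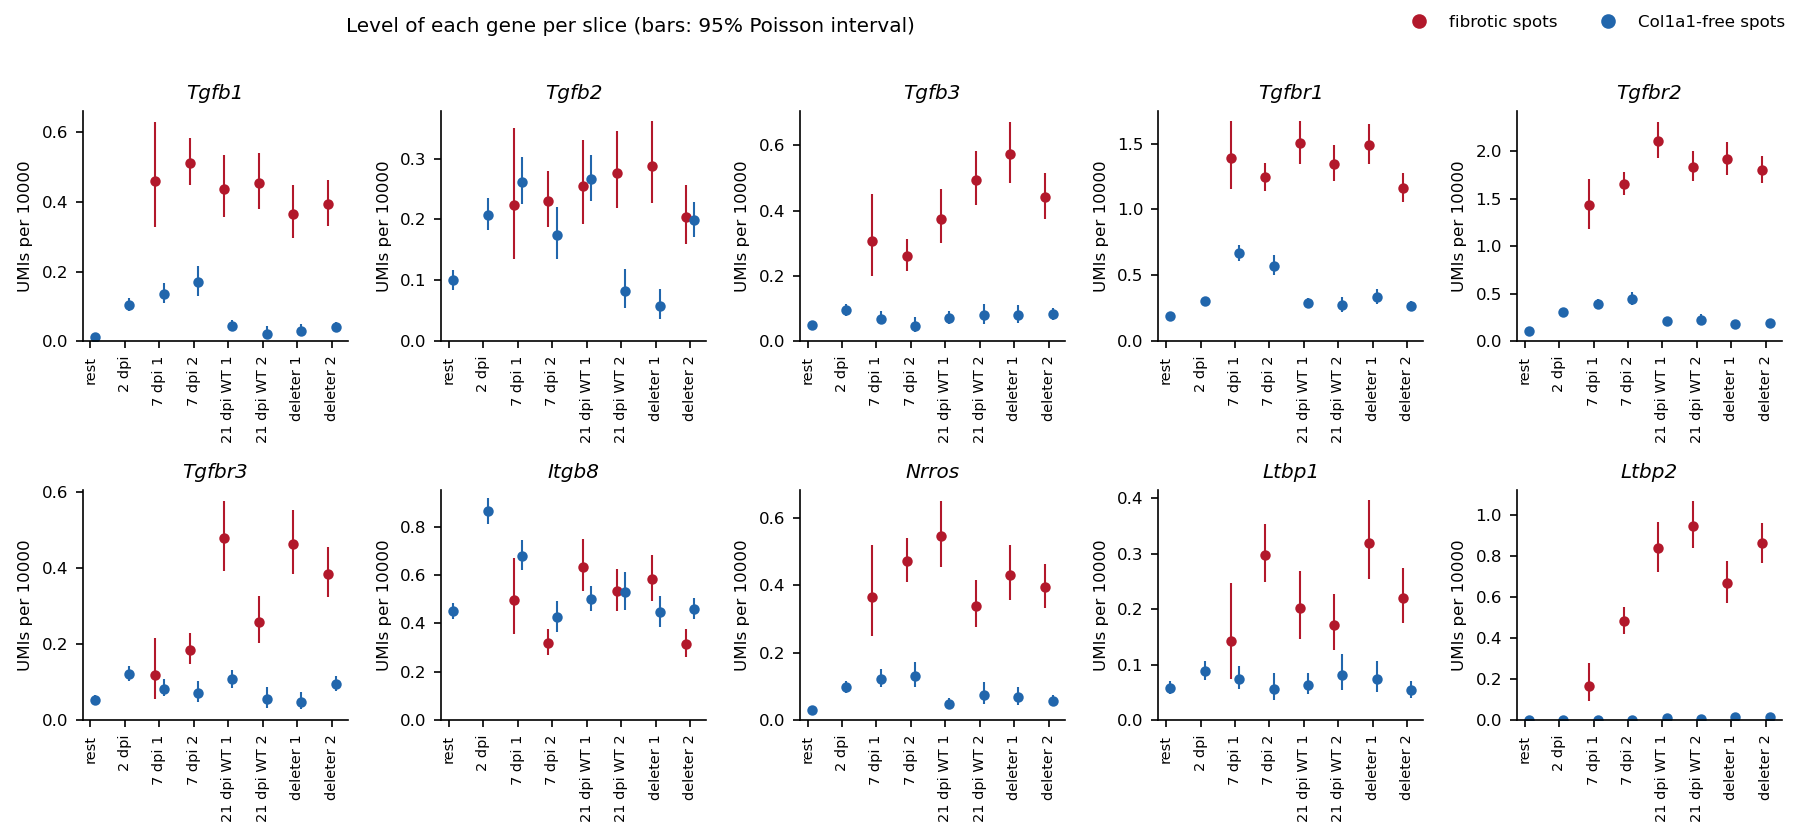
Level of each gene in fibrotic and Col1a1-free spots, in UMIs per 10000, with 1 point per slice and exact 95% Poisson bars for counting error. Tgfb1, Tgfb3, Tgfbr1, Tgfbr2, Tgfbr3, Nrros, Ltbp1 and Ltbp2 separate by class of spot over the 6 slices with fibrotic tissue, while Itgb8 and Tgfb2 overlap. The share of all genes that separate this way was not computed.

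**Figure D2:**
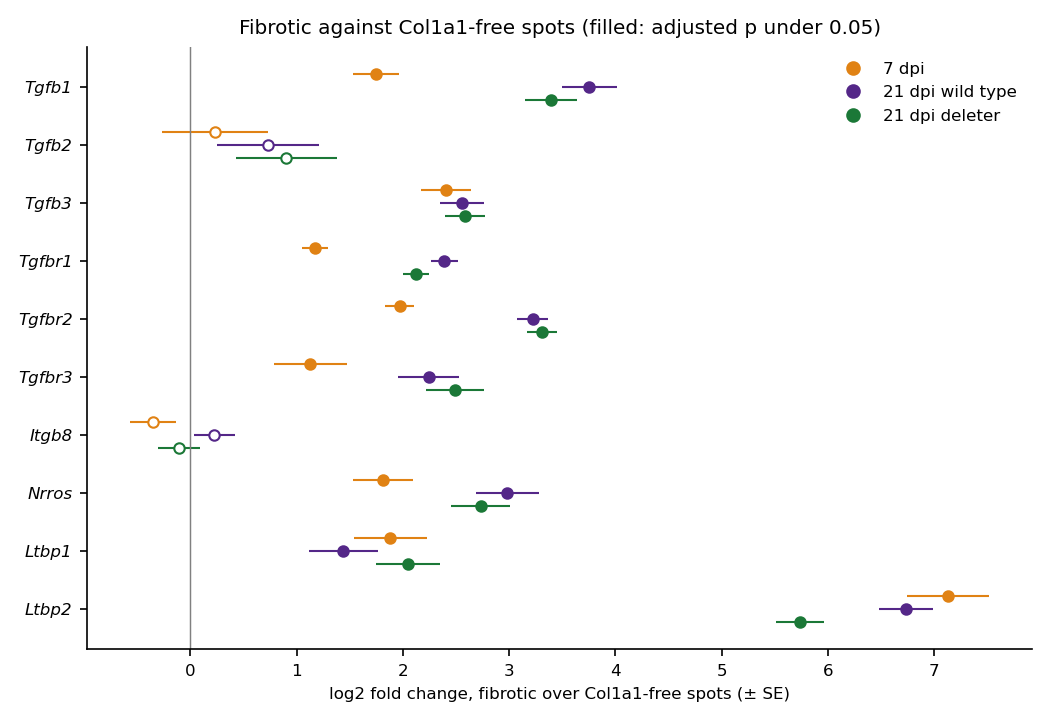
Log2 fold change of fibrotic over Col1a1-free spots for the 10 genes in each group, with bars of 1 SE (fold change over the square root of edgeR's F statistic, n = 2 slices per group) and open symbols where the gene did not pass. Ltbp2 lies farthest to the right at 5.73 to 7.13, and Tgfb1 is at 1.75 at 7 dpi against 3.76 at 21 dpi.

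The difference between fibrotic and Col1a1-free spots was itself compared between 7 and 21 dpi in WT mice. It was smaller at 7 dpi for Tgfb1, by 2.01 on the log2 scale (difference -2.01, SE 0.34, adjusted p = 0.0141), for Tgfbr2 (-1.25, SE 0.19, adjusted p = 0.00875) and for Tgfbr1 (-1.22, SE 0.18, adjusted p = 0.00683), by edgeR. These 3 of 10 members stood beside 2.71% of all genes with a smaller difference at 7 dpi. Nrros (-1.17, adjusted p = 0.171), Tgfbr3 (-1.11, adjusted p = 0.222) and Tgfb3 (-0.15, adjusted p = 0.860) did not pass. With 2 slices a group each call leaned on single slices. The adjusted p of Tgfb1 rose to 0.0566 without 7 dpi slice 1, 0.0951 without 7 dpi slice 2 and 0.0548 without WT slice 2, its difference was -2.68 (adjusted p = 0.0205) without WT slice 1, that of Tgfbr2 rose to 0.0576, 0.0710 and 0.0589 without 7 dpi slice 1, 7 dpi slice 2 and WT slice 1, and that of Tgfbr1 to 0.0560 without 7 dpi slice 2. Nrros passed without WT slice 2 (-1.76, adjusted p = 0.0395), with no filter on low counts (-1.21, adjusted p = 0.0135) and with at least 10 Col1a1 UMIs per 10000 (-1.39, adjusted p = 0.0467).

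In Col1a1-free spots the same genes were higher at 7 than at 21 dpi. The log2 fold change was 2.16 for Tgfb1 (SE 0.35, adjusted p = 0.0195), 1.16 for Tgfbr1 (SE 0.17, adjusted p = 0.0136) and 0.93 for Tgfbr2 (SE 0.15, adjusted p = 0.0201), by edgeR over 14149 genes, of which 3.01% were called higher. Nrros had 1.11 (SE 0.30, adjusted p = 0.102), which passed with no filter on low counts (1.09, adjusted p = 0.0109), and Ltbp2 was too sparse to be tested. No other member of the 9 tested was called. The calls were not stable to leaving out a slice: 1 of the 3 was left without 7 dpi slice 1, 1 without 7 dpi slice 2, 1 without WT slice 1 and 0 without WT slice 2, and the fold of Tgfb1 was 2.84 (adjusted p = 0.0374) without WT slice 1. Tgfbr2 was also lost (adjusted p = 0.0514) without deleter slice 1.

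Macrophage and microglia markers differed in the same direction in these spots, at 23.3 and 25.6 UMIs per 10000 at 7 dpi against 8.05 and 5.10 at 21 dpi, with all 6 markers detected. Per 1000 of these marker UMIs, Col1a1-free spots held 5.86 and 6.61 Tgfb1 UMIs at 7 dpi and 5.25 and 4.15 at 21 dpi, and fibrotic spots held 6.37 and 7.66, and 7.10 and 7.23. For the other genes the Col1a1-free ratio was lower at 7 than at 21 dpi, at 28.7 and 22.4 against 35.9 and 53.4 for Tgfbr1, 16.7 and 17.3 against 26.6 and 44.5 for Tgfbr2, and 5.26 and 5.11 against 5.91 and 14.8 for Nrros. Thus in Col1a1-free spots of WT mice the 7 dpi ratios were above the 21 dpi ratios for Tgfb1 and below them for Tgfbr1, Tgfbr2 and Nrros. Per 10000 UMIs of all genes, all 4 were above in these spots. In fibrotic spots the Tgfb1 ratios of the times overlapped. The 21 dpi Col1a1-free ratios rested on 32 and 7 UMIs of Tgfb1 and 36 and 25 of Nrros. In Col1a1-free spots of the deleter slices at 21 dpi the Tgfb1 ratios were 4.41 and 6.93, the second above both 7 dpi values. There Tgfbr1 (50.7 and 45.5), Tgfbr2 (27.2 and 32.2) and Nrros (10.3 and 9.59) also had ratios above those at 7 dpi. No interval was computed for any of these ratios. The part of macrophage number in these levels was not tested. The 3 homeostatic microglia markers (P2ry12, Tmem119 and Sall1) summed to 1.46 and 1.29 at 7 dpi against 0.734 and 0.730 at 21 dpi.

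Within fibrotic spots 1 member was called between the times. Ltbp2 was lower at 7 than at 21 dpi (log2 -1.21, SE 0.30, adjusted p = 0.0463), beside 2.50% of 13289 genes called lower, and the 7 dpi slices at 0.165 and 0.483 UMIs per 10000 lay below the 21 dpi slices at 0.836 and 0.946. The call was lost without 7 dpi slice 1 (-0.88, adjusted p = 0.0916) and without WT slice 2 (-1.12, adjusted p = 0.0750), with library sizes in place of TMM (adjusted p = 0.0514) and without edge spots (adjusted p = 0.0622), and the fold was -2.39 (adjusted p = 0.0140) without 7 dpi slice 2. Tgfbr3 had -1.10 (SE 0.27, adjusted p = 0.0804) and passed without WT slice 2 (-1.52, adjusted p = 0.00478). Tgfb1 had 0.17 (SE 0.16, adjusted p = 0.654), Tgfbr1 -0.10 (adjusted p = 0.821) and Tgfbr2 -0.32 (adjusted p = 0.275), none of which passed.

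The level of the members was next read against distance from fibrotic tissue. Spots were grouped by steps on the hexagonal array to the nearest fibrotic spot of the slice, and spots at 1 to 2 steps were compared with spots at 6 or more. At 7 dpi Tgfb1 stood at 0.526 and 0.400 UMIs per 10000 at 1 to 2 steps, 0.211 and 0.257 at 3 to 5 steps and 0.0817 and 0.0531 at 6 or more. At 21 dpi it stood at 0.196 and 0.121, 0.0541 and 0.0364, and 0.0569 and 0.0198. At 7 dpi the first 2 steps were thus near the fibrotic level of 0.461 and 0.512, and in the first slice above it, whereas at 21 dpi they lay below the 0.438 and 0.456 of fibrotic spots.

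Tgfbr1 followed the same course, with 1.86 and 0.983 UMIs per 10000 at 1 to 2 steps and 0.572 and 0.297 at 6 or more at 7 dpi, and 0.776 and 0.849 against 0.356 and 0.2499 at 21 dpi. Ltbp2 was low already at the first steps, with 0.165 and 0.483 in fibrotic spots against 0.0271 and 0.0318 at 1 to 2 steps at 7 dpi, and 0.836 and 0.946 against 0.103 and 0.0760 at 21 dpi. Itgb8 stood at 0.716 and 0.347 near and 0.714 and 0.462 far at 7 dpi, and at 0.731 and 0.800 near against 0.640 and 0.478 far at 21 dpi.

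**Figure D3:**
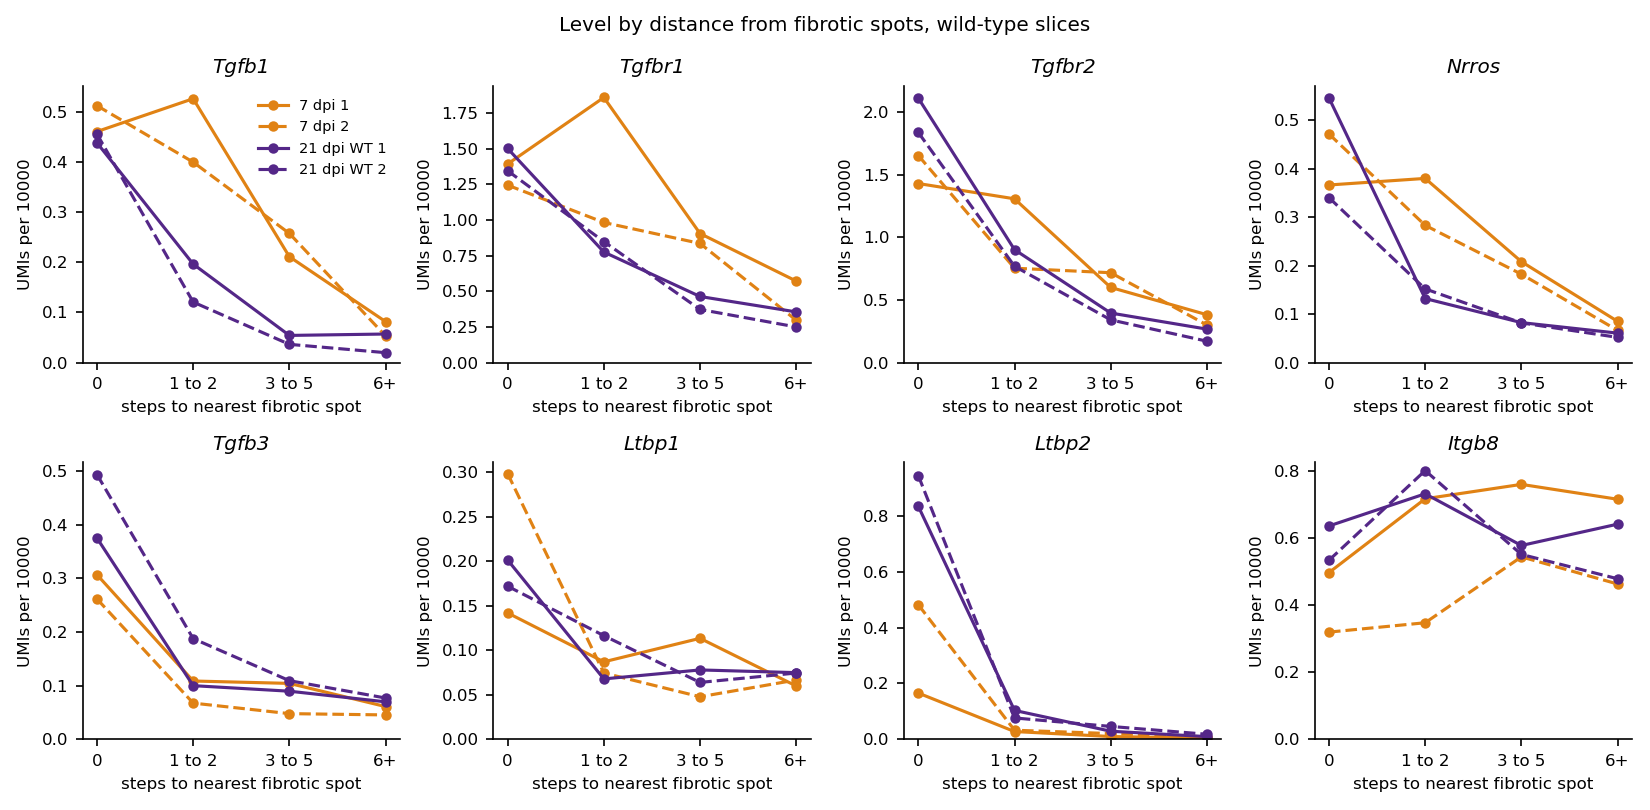
Level in UMIs per 10000 by distance from fibrotic spots (fibrotic, 1 to 2, 3 to 5, and 6 or more steps) in the 4 WT slices at 7 and 21 dpi, 1 line per slice. Tgfb1 is at 0.526 and 0.400 at 1 to 2 steps at 7 dpi against 0.196 and 0.121 at 21 dpi, and Ltbp2 is at 0.0271 to 0.103 at 1 to 2 steps against 0.165 to 0.946 in fibrotic spots.

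By edgeR with the slice as block, 5 of 10 members were higher near than far at 7 dpi, beside 16.6% of 14645 genes: Tgfb1 (2.76, SE 0.30, adjusted p = 1.51e-05), Nrros (2.14, SE 0.27, adjusted p = 4.54e-05), Tgfbr1 (1.73, SE 0.21, adjusted p = 3.86e-05), Tgfbr2 (1.61, SE 0.26, adjusted p = 0.000351) and Ltbp2 (2.27, SE 0.54, adjusted p = 0.00614). At 21 dpi the same 5 and Tgfb3 were higher, beside 10.9% of genes: Tgfb1 by 1.94 (SE 0.35, adjusted p = 0.00173), Nrros by 1.30 (adjusted p = 0.00877), Tgfbr1 by 1.40 (adjusted p = 0.000697), Tgfbr2 by 1.90 (adjusted p = 0.000310), Ltbp2 by 2.87 (adjusted p = 0.000171) and Tgfb3 by 0.88 (SE 0.25, adjusted p = 0.0241). Tgfb2, Tgfbr3, Ltbp1 and Itgb8 did not pass at either time, and Tgfb3 had 0.77 (adjusted p = 0.0586) at 7 dpi. Ltbp2 was sparse here, with 5 and 9 UMIs near against 3 and 3 far at 7 dpi. At 21 dpi it had 32 and 17 near against 7 and 7 far. It passed the filter on low counts through the fibrotic and nearer zones, where it is higher. Its calls therefore add nothing to the counts of members. Ltbp2 at 7 dpi was lost without 7 dpi slice 1 (1.97, adjusted p = 0.137), without edge spots (2.01, adjusted p = 0.0597) and with distance taken from the largest connected group of fibrotic spots (1.56, adjusted p = 0.103), and was 3.04 (adjusted p = 0.0258) without slice 2. At 21 dpi Tgfb3, Tgfbr1 and Nrros were lost without WT slice 2 (0.53, 1.13 and 1.12, adjusted p = 0.557, 0.0658 and 0.170), Tgfb3 also by DESeq2 (adjusted p = 0.0505), Tgfb1 was 2.55 (adjusted p = 0.0166) without WT slice 1, and Ltbp2 ran from 2.08 to 3.50 with a WT slice left out. At 21 dpi Itgb8 was called higher near fibrotic spots with at least 10 Col1a1 UMIs per 10000 (0.53, adjusted p = 0.0470) and with distance from the largest group (0.55, adjusted p = 0.0280), and Tgfbr3 under the former (0.97, adjusted p = 0.0472). The difference of these near-to-far effects between the times was not tested. Macrophage and microglia markers were also lower farther out, at 86.4 and 49.4 UMIs per 10000 at 1 to 2 steps against 16.7 and 9.23 at 6 or more at 7 dpi, and 38.7 and 31.0 against 8.996 and 3.90 at 21 dpi. So were fibroblast markers, at 5.88 and 5.42 against 1.52 and 0.990 at 7 dpi, and 7.19 and 6.43 against 1.56 and 1.13 at 21 dpi. The part of either list was not tested.

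The markers that each gene went with were described in all 8 slices by taking the 10% of spots with the highest summed level of a marker list and dividing a gene's level there by its level in the other spots. A gene was left out of a slice where the rich or the other spots held 3 or fewer of its UMIs. The same spot can be rich in several lists. Tgfb1 stood highest in spots rich in macrophage and microglia markers, at a median of 2.46 on the log2 scale (higher in 7 of 7 slices), and at 1.94 with fibroblast markers. Ltbp2 was at 4.46 in fibroblast-rich spots (6 of 6 slices) and at 1.85 in macrophage-rich ones. Tgfb3 was at 2.29 with fibroblast and 0.72 with macrophage markers, each in 8 of 8 slices, and Nrros at 2.18 (7 of 7) and 1.81 (8 of 8). Tgfbr3 and Ltbp1 had their next-highest medians in spots rich in mural cell markers, 1.88 and 1.33 (8 of 8 each), after fibroblast-rich spots at 1.90 and 1.38.

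Itgb8 had another profile. It was higher in spots rich in astrocyte markers (0.91, 8 of 8 slices), oligodendrocyte markers (0.80, 8 of 8) and choroid plexus markers (0.69, 8 of 8), and was below the other spots in fibroblast-rich spots (-0.60, higher in 1 of 8). Tgfb2 stood highest in choroid plexus-rich spots (1.25, 7 of 8). In neuron-rich spots Tgfbr2 (-2.05), Tgfbr1 (-1.62) and Itgb8 (-0.68) were lower in all 8 slices, and Tgfb1 (-2.26) in 5 of the 6 that could be computed. These medians carry no test.

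**Figure D4:**
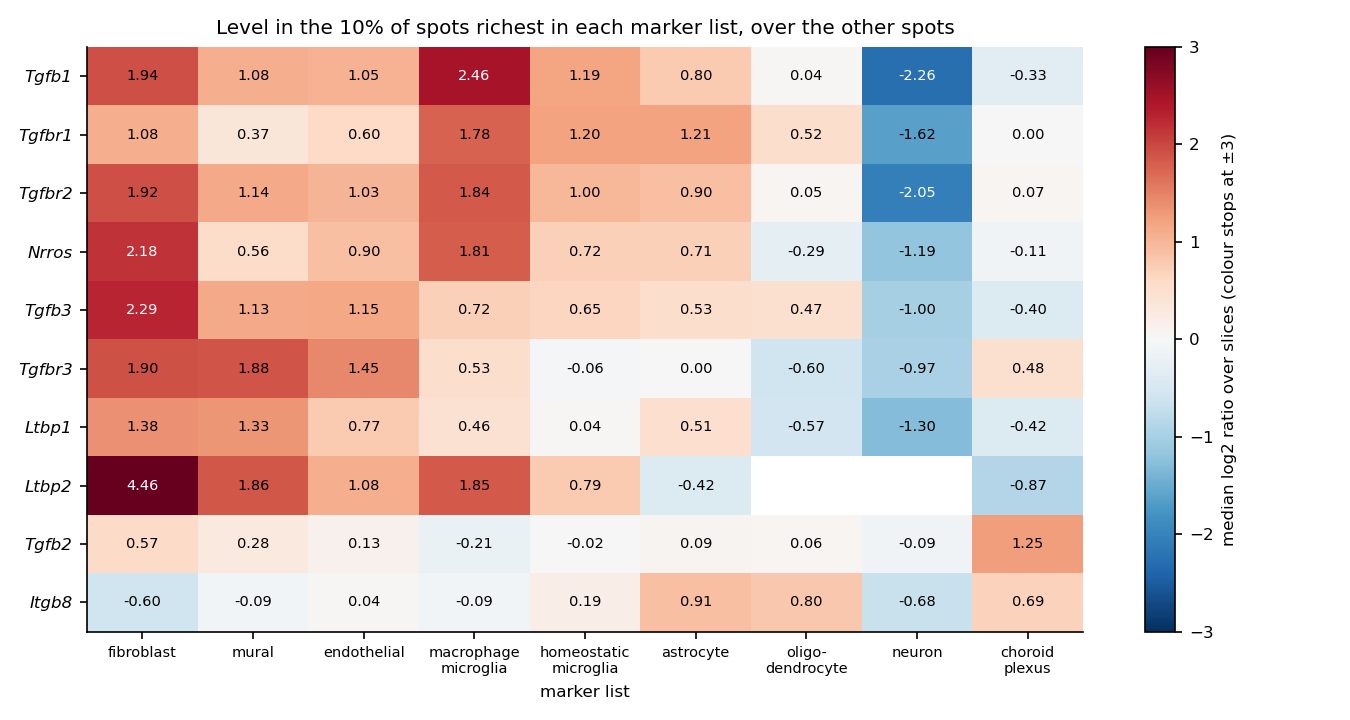
Median over slices of the log2 ratio of each gene's level in the 10% of spots richest in a marker list to its level in the other spots, printed in each cell (blank where under 5 slices gave a ratio). Tgfb1 peaks at 2.46 with macrophage and microglia markers, Ltbp2 at 4.46 with fibroblast markers and Itgb8 at 0.91 with astrocyte markers.

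The spots that held a UMI of Tgfb1, Ltbp2 or Itgb8 were placed on the array. In 7 dpi slice 2, where 41.4% of 947 spots were fibrotic, 149 of the 283 spots with Tgfb1 (52.6%) and 123 of the 138 with Ltbp2 (89.1%) were fibrotic, against 108 of the 369 with Itgb8 (29.3%). In WT slice 2 at 21 dpi, where 24.5% of 827 spots were fibrotic, the shares were 69.2% of 120 spots for Tgfb1, 77.6% of 143 for Ltbp2 and 22.1% of 398 for Itgb8. These are descriptions of 2 slices, chosen as the second of each group, and a spot without a UMI may still express the gene. Detection also depends on depth, for which these shares were not adjusted. The median fibrotic spot held 9206.5 UMIs in the 7 dpi slice, against 17361.5 in Col1a1-free spots. In the 21 dpi slice these medians were 13879 and 11061.

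WT and deleter mice were compared in fibrotic spots at 21 dpi. Each genotype lay on its own capture area, so that genotype and area cannot be told apart. Sex-linked expression also differed: Xist was counted at 1033 UMIs in deleter slice 1, against 19 in deleter slice 2 and 4 and 1 in the WT slices. None of the 10 members passed edgeR's test, where 0.0226% of 13289 genes (3) were called and 839 had an unadjusted p under 0.05. DESeq2 called 9 genes, and edgeR called 93 without WT slice 1. The members' log2 fold changes of WT over deleter ran from -0.53 for Ltbp1 (SE 0.29, adjusted p = 0.811) to 0.39 for Itgb8 (SE 0.28, adjusted p = 0.867), with none of the 10 under an unadjusted p of 0.05. Cthrc1, whose promoter drives the Cre, stood in fibrotic spots at 0.219 and 0.175 UMIs per 10000 in WT and 0.101 and 0.132 in deleter mice. Its log2 fold change was 0.71 (SE 0.23, unadjusted p = 0.0102, adjusted p = 0.726 by edgeR), which did not pass. At 7 dpi Cthrc1 stood at 1.16 and 1.09.

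At rest and at 2 dpi there was 1 slice each, so these values have no replicate check and no test, and their exact 95% intervals cover counting error only. Tgfb1 stood at 0.0141 UMIs per 10000 over all spots at rest (23 UMIs) and 0.104 at 2 dpi (136 UMIs), a ratio of 7.39 (4.73 to 12.0). Nrros stood at 0.0300 and 0.0985 (ratio 3.29, 2.35 to 4.67) and Tgfbr2 at 0.109 and 0.323 (2.95, 2.47 to 3.54). Tgfb1 had the highest ratio of the 10 between these libraries. Tgfb2 stood at 0.100 and 0.228 (2.28, 1.88 to 2.77), Tgfbr3 at 0.0611 and 0.136 (2.22, 1.73 to 2.87), Tgfb3 at 0.0489 and 0.0932 (1.91, 1.43 to 2.56), and Itgb8 at 0.456 and 0.876 (1.92, 1.75 to 2.11).

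Tgfbr1 stood at 0.199 and 0.303 (1.52, 1.31 to 1.77), Ltbp1 at 0.0593 and 0.0909 (1.53, 1.16 to 2.03), and Ltbp2 was counted 5 times at rest and 3 times at 2 dpi (0.750, 0.116 to 3.85). The interval of Ltbp2 spanned 1, and those of the other members lay above 1. The share of all genes with intervals above 1 was not computed, so that these intervals do not set the members apart. The Itgb8 level at 2 dpi lay above the 0.712 and 0.406 of the 7 dpi slices over all spots. The slice at 2 dpi was the shallowest per spot, and spots under 1000 UMIs left out gave ratios of 7.41 for Tgfb1 and 1.94 for Itgb8. Macrophage and microglia markers stood at 2.55 UMIs per 10000 at rest and 9.78 at 2 dpi, so that Tgfb1 came to 5.51 and 10.6 UMIs per 1000 marker UMIs. The slices also differed in the tissue they held: choroid plexus markers stood at 5.42 at rest and 192 at 2 dpi, astrocyte markers at 6.04 and 15.9, fibroblast markers at 0.421 and 1.23 and neuron markers at 45.87 and 23.996. Their part in the ratios, among them those of Tgfb2 and Itgb8, was not tested.

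The rest of the pathway was read from 3 lists. Of 12 genes for latency and release, 11 were tested, and 10 were higher in fibrotic spots at 7 dpi and 11 at 21 dpi (median log2 2.20 and 2.58), led by Thbs1, a thrombospondin that can activate latent TGFβ (4.62, SE 0.21, adjusted p = 1.01e-06), and Mmp14, a membrane protease (4.54, SE 0.21, adjusted p = 1.01e-06). Ltbp4 was the tested gene not called at 7 dpi (0.48, adjusted p = 0.191). Of 16 receptor and SMAD genes, 10 and 9 were higher at 7 and 21 dpi (median 0.49 and 0.77), led by Pmepa1, an inhibitor of SMAD signalling (2.01, SE 0.13, adjusted p = 6.40e-06), and Acvrl1, a receptor of endothelium (1.83, SE 0.20, adjusted p = 9.99e-05). All 14 genes known as TGFβ targets were higher at both times (median 3.51 and 4.03), led by Lrrc15 (6.49, SE 0.73, adjusted p = 0.000105) and Col3a1 (6.13, SE 0.19, adjusted p = 2.96e-07), many of them fibroblast genes that go with the Col1a1 used to choose the spots. None of the 3 lists had a gene called lower at either time. Over all tested genes, 22.2% were called higher at 7 dpi and 29.0% at 21 dpi, and 20.6% and 27.4% lower.

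Between 7 and 21 dpi, more of the targets than of the members were called in fibrotic spots, a difference of counts that was not tested. There, 9 of 14 targets were higher at 7 dpi and 0 lower (median 0.83), Lrrc15 by 3.42 (SE 0.64, adjusted p = 0.0149), beside 1.89% of all genes called higher, whereas 0 of the 10 members were higher and 1 was lower (median -0.26). Of the latency genes 1 was higher and 1 lower, and of the receptor and SMAD genes 0 were called. The lists were chosen with earlier results of these data known. The paper names Lrrc15, Cthrc1, Postn, Fn1 and Acta2, all on the target list, among markers of the myofibroblast states that prevail in the sub-acute phase. The higher count of targets at the earlier time can therefore follow from the choice of list. Setting it beside the count of members is a description and no independent test. In Col1a1-free spots 3 of 11 latency genes, 0 of 16 receptor and SMAD genes and 3 of 13 targets were higher at 7 dpi, beside 3.01% of all genes. Near fibrotic spots, 9 of 11, 5 of 16 and 11 of 14 were higher than far at 7 dpi, beside 16.6% of all genes, and 6, 3 and 6 at 21 dpi, beside 10.9%.

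The genes whose levels ran most like each member over the 24 sums were looked up among 10603 genes, by Pearson's r of log2 CPM (counts scaled to library size), as a description with no test. Tgfb1 ran most like Tmem106a (0.989), Arhgap30 (0.988) and Lcp1 (0.983), Tgfbr1 like Vsir (0.988) and Gngt2, Tgfbr2 like Tnfrsf1a (0.989), Rab3il1 and Pros1, and Nrros like Bnip2 (0.980), Gpx1 and Ripk1. Tgfb3 ran most like Ctsk (0.955), Mgp and Foxc2, Ltbp2 like Col6a2 (0.983), Fmod and Cpxm1, Ltbp1 like P3h1 (0.919), Cul7 and Serpinb9, and Tgfbr3 like Nbl1 (0.939), Adamts15 and Eya2. Tgfb2 had weaker partners in Homer3 (0.878), Lats2 and Cachd1, and Itgb8 the weakest, in Sox2 (0.810), Adgrg1 (0.801) and Sox9 (0.768). Among the members, Tgfb3 and Ltbp2 stood at 0.929 and Tgfb3 and Ltbp1 at 0.898, while Itgb8 ran from -0.190 to 0.283 with the other 9.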

How the data were processed

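Visium captures polyA RNA on an array of barcoded spots. The authors aligned reads to mm10 with Space Ranger 2.0.0 (tool and build also per the labels) and deposited unnormalized UMI counts for each spot, beside array positions and image scale factors, which are other numbers. Of these only the counts and array positions were used. The 2 connected pieces of tissue in each capture area were taken as slices and UMIs were summed per slice and class of spot. edgeR 4.0.16 in R 4.3.3 (quasi-likelihood F test after TMM scaling and the filterByExpr filter, p-values adjusted by Benjamini-Hochberg over all genes tested, threshold 0.05) compared the sums, with slice as block for contrasts within slices and the 3 groups with 2 slices sharing the estimate of spread. The authors tested single spots with MAST, which treats spots as replicates and was not repeated. DESeq2 1.42.0, other filters, scalings and spot classes, and each slice left out were alternatives. The slices are not named in the labels, so their numbers only tell them apart. Genes named are the 10 members, the 2 largest changes past the threshold per pathway list at 7 dpi, and the 3 genes most like each member, of which 1 is not reported here. The members and lists were chosen with earlier results of these data known. Positions of genes follow GENCODE M21 (GRCm38). Intervals are exact (Poisson, or conditional binomial for ratios, scipy 1.17.1). The fits were tested on simulated data.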

Additional observations from a re-analysis of the deposited data

Results flagged for a closer look

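The contrast between fibrotic and Col1a1-free spots differed between 7 and 21 dpi in WT mice for 3 genes, by a test of the difference itself (edgeR, n = 2 slices per group): Tgfb1 (-2.01 on the log2 scale, adjusted p = 0.0141), Tgfbr2 (-1.25, adjusted p = 0.00875) and Tgfbr1 (-1.22, adjusted p = 0.00683). Each group had 2 slices on 1 capture area, so time, area and sex-linked expression cannot be told apart. Col1a1-free spots were also not matched between the times for distance from fibrotic tissue, and the part of distance was not tested.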

How the results depend on the processing

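Of 1257 member values recomputed under the alternatives, 1207 kept their side of the threshold, 33 were lost, 17 were gained and 0 reversed. A value counted as reversed only if its sign changed and it was called in either fit. Values called in neither fit did change sign, as for Itgb8 between fibrotic and Col1a1-free spots at 21 dpi (-0.20 to 0.42). The members called for the difference between times (3) numbered 0 to 3 with a slice left out (1 without 7 dpi slice 1, 0 without 7 dpi slice 2), those in Col1a1-free spots (3) 0 to 3, and those near against far at 21 dpi (6) 3 without WT slice 2. In fibrotic spots between times the 1 member called became 0 with library sizes alone, 0 without edge spots, 4 with no filter on low counts, 2 with at least 10 Col1a1 UMIs per 10000 and 0 without 7 dpi slice 1. The macrophage-rich median of Ltbp2 was 3.13 with the richest 20% of spots. With no replicate block, that is without pairing spots of a slice, Tgfb3 near against far at 21 dpi was lost (0.92, adjusted p = 0.0947) and all genes called there fell from 2676 to 1368; no other member call changed. Calls over all genes moved with single slices left out: 6194 to 3041 for fibrotic spots at 7 dpi without 7 dpi slice 2, 4291 to 1257 near against far at 7 dpi without 7 dpi slice 1, 2676 to 456 at 21 dpi without WT slice 2, 444 to 111 in Col1a1-free spots without WT slice 2, and 3 to 93 between WT and deleter mice without WT slice 1. Near against far they went to 2571 at 7 dpi and 5115 at 21 dpi with distance from the largest group of fibrotic spots. Without the filter on low counts, calls were 445 to 1475 for the difference, 583 to 1317 and 444 to 1702 between times in fibrotic and Col1a1-free spots, and 3 to 171 between WT and deleter mice. The causes were not tested. Low counts limit Ltbp2 most, with 1 to 14 UMIs in Col1a1-free spots.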
